A study of Mus musculus with 38 samples.

Results

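The genes described here are the cyclins, the cyclin-dependent kinases (CDKs) with their inhibitors, the Cdc genes, the E2f transcription factors and the subunits of the origin recognition complex (ORC) and the MCM helicase, measured in mouse spleen 3.5 hr after a low dose of X-rays. They were chosen by name, as the probes whose RefSeq accession maps to 1 gene symbol beginning with Ccn plus a letter and digit, Cdk plus a digit, Cdkn, Cdc plus a digit, Mcm plus a digit, E2f or Orc, a rule that uses names and no measured value, although the group of genes was picked with earlier results of these data known. This gave 56 genes among 21618 probes, of which 6518 could be given 1 gene symbol. By role, 9 act in G1 and at the entry to S phase, 6 are CDK inhibitors, 15 act in replication, 4 in G2 and mitosis, 3 in transcription, and 19 have other roles or share only the name, such as the effectors of the GTPase Cdc42.

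Cyclins are unstable proteins that switch on their CDK partners at set points of the cell cycle. D-type cyclins with Cdk4, then E-type cyclins with Cdk2, release E2F factors from the retinoblastoma protein, and E2F factors in turn drive genes for replication. ORC, Cdc6 and the MCM helicase are loaded on DNA in G1, which licenses each origin to fire once. Cyclin B with Cdk1, freed by the Cdc25 phosphatases, carries the cell into mitosis. The inhibitor Cdkn1a (p21), a classical p53 target, and its relatives stop CDKs after DNA damage. In mouse spleen, most lymphocytes rest outside the cycle, while red cell precursors divide there.

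Each array was hybridised with RNA of an irradiated male mouse and of a sham-exposed male mouse of the same inbred strain, in the dyes Cy5 and Cy3. The irradiated mice received 10 rad (10 cGy) of X-rays and the sham-exposed mice none, spleens were taken 3.5 hr later, and the labels give an age of 10 to 14 wk for all mice, while the methods of the study give a younger range. There were 8 arrays each of A/J, B6.C and Balb/C, 6 of C3H/HeJ, and 4 each of C57Bl6/J and DBA/2J, 38 in all, with irradiated RNA in Cy5 on 19 and in Cy3 on 19, evenly in each strain. Strains labelled BalbxJ, C3H and BI6Jx were taken as Balb/C, C3H/HeJ and C57Bl6/J, the names in the methods. Each pair of mice was hybridised in both orientations, but the labels do not show which arrays share a pair, so the strain was used as the unit.

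The values are signed scores, and the sources used here state neither their scale nor a log base nor which dye stands on top. After each array was centred on its median, scores of arrays with irradiated RNA in Cy3 were multiplied by -1 (turned). A positive score then means more signal from irradiated than from sham-exposed spleen if the deposited ratios are Cy5 over Cy3, and less if they are Cy3 over Cy5, so only the positive and negative side are named and no fold is given. The score of a strain is the mean of its mean over Cy5 arrays and its mean over turned Cy3 arrays. Arrays held values for 31 to 54 of the 56 genes, and the SD of all scores on an array ran between 0.616 and 2.35. Arrays 50 and 53 of B6.C and 97 of C57Bl6/J correlated below -0.3, over all probes, with 4, 3 and 8 other arrays of their own orientation, so their direction is not settled. In bulk spleen, fewer cells of a type and less RNA per cell cannot be told apart. The scores compare the 2 RNAs of an array and hold no level of a gene, so whether the defining markers of spleen cell types were present was not tested.

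Testing required values on 19 or more arrays, with every strain measured in both dye orientations, which 44 of the 56 genes and 14513 probes in all did. The other 12 genes had values on fewer arrays or lacked an orientation of some strain: Ccne2 (24 arrays), Cdkn1b (18), Cdkn1c (13), Cdc45 (26), Ccnb2 (10), Cdk11b (20), Ccng1 (15), Cdc37 (23), Cdc42 (8), Cdk5r1 (19), Cdk5rap1 (8) and Cdk5rap3 (13). At the other end, Ccnd3, Ccne1, Mcm2, Mcm5, Orc2, Cdc42ep5 and Cdk2ap2 had a value on all 38 arrays.

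No cell cycle gene passed the test over strains. limma, which set the mean of the 6 strain scores against 0 with Benjamini-Hochberg adjustment over all tested probes, called 0 of the 44 genes and 0% of the 14513 probes at an adjusted p under 0.05. At an unadjusted p under 0.05 it called 4 genes, Mcm4 and Cdc42ep4 on the positive side and Cdk5r2 and Cdc37l1 on the negative side. That is 9.09% of the 44, against 8.21% of all probes tested, so the share was near the background. Scores had the same sign in all 6 strains for 3 genes, Mcm4, Cdc6 and Cdk5r2 (6.82%), against 4.27% of all probes. The median of the 44 means was -0.0235, beside -0.00675 for all probes tested, with 20 means on the positive and 24 on the negative side. Without centring, the positive share of the 44 means was 72.7% rather than 45.5%, and the median of all probes lay at 0.121. Single means under other settings were looked up for 27 of the 44 genes only. Among these 27, the means of Cdk2, Cdkn1a, Cdk1, Mcm2 and Mcm6 changed side without centring, to 0.128, 0.0529, 0.0143, 0.0689 and 0.0263. That of Mcm7 changed side with arrays also scaled to the same spread (-0.151). With the signs of arrays 50, 53 and 97 turned, the 4 calls became 0, and 2.92% of all probes were called. With these 3 arrays left out, 3 of 41 genes were called (Mcm4, Cdk5r2 and Cdk5), and 3.45% of all probes.

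**Figure D1:**
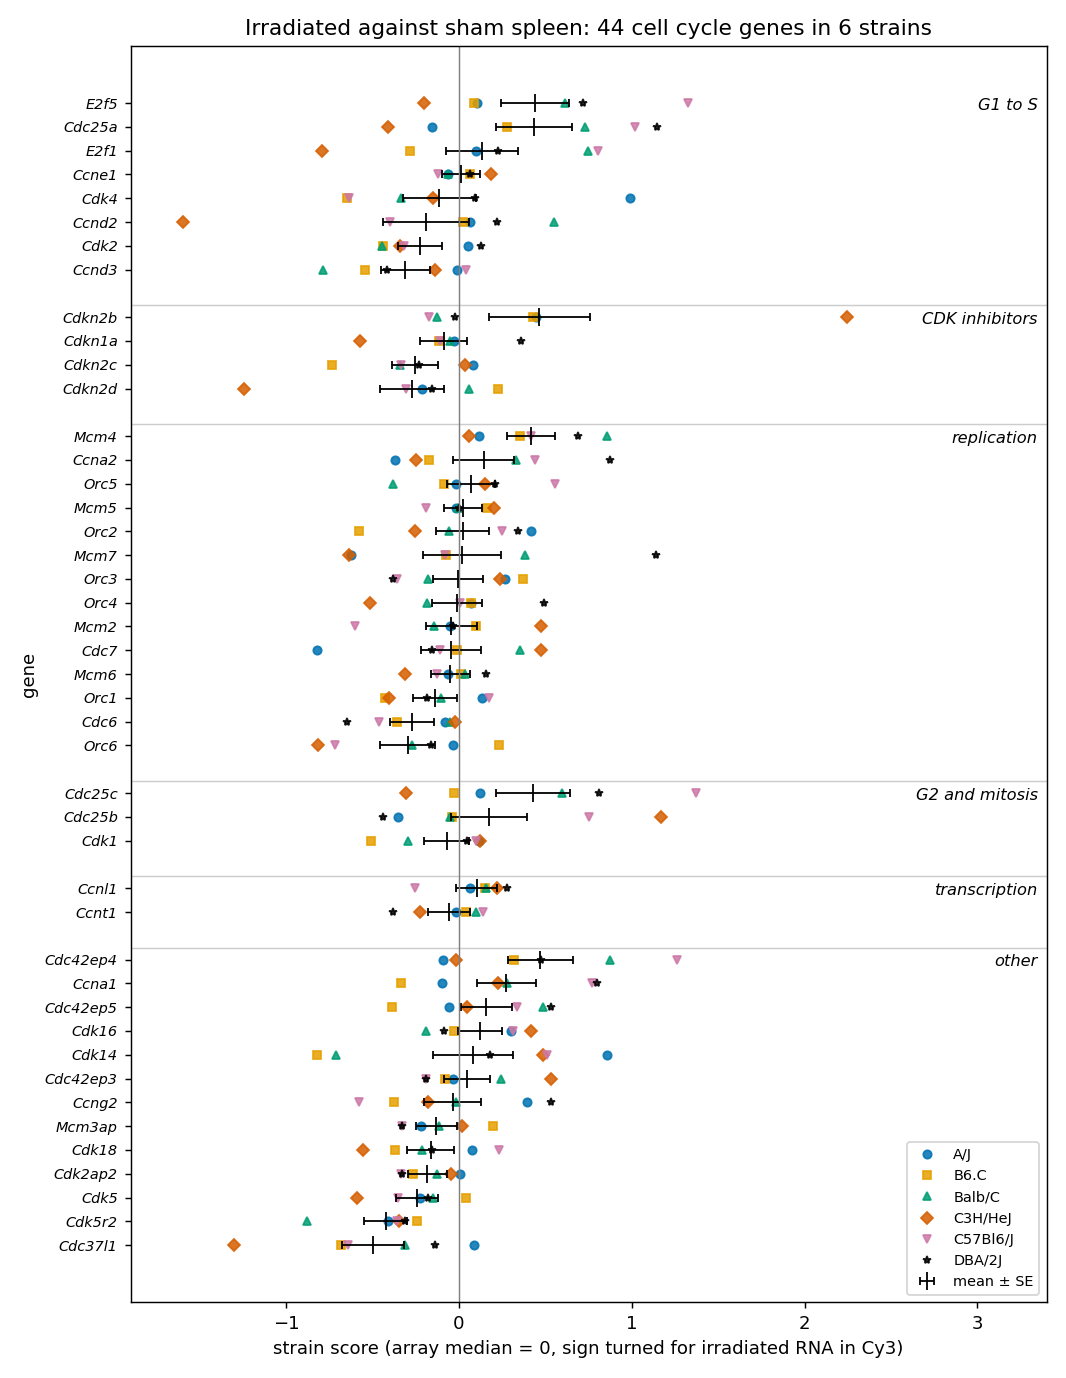
Strain scores of the 44 tested genes (x axis, centred and turned score, irradiated against sham-exposed spleen; unit not given), 1 marker per strain, with the mean over strains and its SE as a black bar; genes are grouped by role and sorted by mean. Scores of Mcm4 lie right of 0 and those of Cdc6 and Cdk5r2 left of 0 in all 6 strains, while most genes have strains on both sides, and the largest score is that of Cdkn2b in C3H/HeJ (2.24).

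Promoter windows are shown for 4 genes that stand for the G1, licensing and mitotic roles and whose sequence carries the motifs through which these roles are known to be timed. Windows of 250 bases before to 50 after the start in RefSeq (GRCm38.p6) were used for 47 of the 56 genes. The mitosis gene Cdc25c was left out of these, so whether its window holds the letters searched for was not tested. Capitals mark the letters TTTCCCGC, TTTCGCGC, TTTGCCGC or TTTGGCGC, forms of the E2F site, and TTTGAA, the cell cycle homology region (CHR) of late genes, each searched on both strands.
Cdc25a, chr9:109875329-109875628, plus strand: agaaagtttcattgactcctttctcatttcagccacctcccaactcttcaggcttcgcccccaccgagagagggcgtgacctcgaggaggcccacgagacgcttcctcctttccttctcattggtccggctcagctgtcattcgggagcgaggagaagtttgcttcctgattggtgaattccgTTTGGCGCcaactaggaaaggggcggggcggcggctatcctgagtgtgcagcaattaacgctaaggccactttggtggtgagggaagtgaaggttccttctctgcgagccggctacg
Cdc6, chr11:98907901-98908200, plus strand: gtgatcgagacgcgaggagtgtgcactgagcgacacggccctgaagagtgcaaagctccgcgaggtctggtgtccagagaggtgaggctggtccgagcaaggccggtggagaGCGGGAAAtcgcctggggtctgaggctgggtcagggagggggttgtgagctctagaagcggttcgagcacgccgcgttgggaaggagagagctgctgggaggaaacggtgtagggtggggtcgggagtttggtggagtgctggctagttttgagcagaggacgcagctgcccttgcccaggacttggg
Mcm6, chr1:128359656-128359955, minus strand: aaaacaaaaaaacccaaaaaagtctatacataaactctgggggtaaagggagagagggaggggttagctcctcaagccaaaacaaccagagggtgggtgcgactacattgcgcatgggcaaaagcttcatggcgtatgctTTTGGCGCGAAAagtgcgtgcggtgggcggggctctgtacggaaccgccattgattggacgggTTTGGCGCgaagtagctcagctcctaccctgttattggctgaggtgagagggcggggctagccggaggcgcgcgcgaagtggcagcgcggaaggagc
Cdk1, chr10:69352863-69353162, minus strand: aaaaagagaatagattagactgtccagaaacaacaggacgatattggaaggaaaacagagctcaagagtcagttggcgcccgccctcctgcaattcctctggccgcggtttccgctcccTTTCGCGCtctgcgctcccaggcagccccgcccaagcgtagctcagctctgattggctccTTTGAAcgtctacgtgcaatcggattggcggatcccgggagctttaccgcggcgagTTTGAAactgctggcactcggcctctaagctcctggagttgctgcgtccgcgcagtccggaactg
In Mcm6, 2 of the 3 E2F matches overlap in the first run of capitals. Cdk1 holds 1 E2F match, the first run of capitals, and 2 CHR matches after it. E2F letters stood in windows of 9 of the 47 genes, Cdc25a, Cdk2, Cdc6, Mcm5, Mcm6, Mcm7, Orc1, Orc3 and Cdk1, and in 9 of their 58 windows (15.5%), against 2.26% of all 32851 windows of this length. CHR letters stood in 12 of the 58 windows (20.7%), against 17.9% of all. A match is only a run of letters. The 9 genes with E2F letters, all tested, had means over strains between -0.271 and 0.435 with a median of -0.0500, and 29 tested genes with a window but no such letters had a median of -0.0362.

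Of the 8 tested genes of G1 and S phase entry, 4 had a mean on the positive side and 4 on the negative side, and their median was -0.0510. The furthest on the positive side were E2f5, a repressive E2F factor that pairs with pocket proteins, and Cdc25a, the phosphatase that activates Cdk2 and is destroyed after DNA damage. E2f5 averaged 0.441 ± 0.555 (SD, n = 6 strains), with strain scores of 0.105 in A/J, 0.0878 in B6.C, 0.613 in Balb/C, -0.204 in C3H/HeJ, 1.33 in C57Bl6/J and 0.719 in DBA/2J. limma gave it an adjusted p = 0.567, and C3H/HeJ alone was negative. Cdc25a averaged 0.435 ± 0.636 (SD, n = 6 strains), with -0.154 in A/J, 0.278 in B6.C, 0.728 in Balb/C, -0.410 in C3H/HeJ, 1.02 in C57Bl6/J and 1.15 in DBA/2J (limma adjusted p = 0.567).

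The strain scores of Cdc25a hid a split between orientations. In DBA/2J its Cy5 arrays read 4.08 and 1.33, and its turned Cy3 arrays -0.184 and -0.635. In Balb/C the Cy5 arrays read 0.533, 0.303, 2.36 and 3.79, and the turned Cy3 arrays 0.0251, 0.115, -0.452 and -0.843. Only the Cy5 arrays 34, 35 and 36 among these exceeded 2, and the orientations did not overlap in either strain. In C57Bl6/J the Cy5 arrays read 2.29 and 2.02, and the turned Cy3 arrays -1.50 and 1.27, the positive one of which is array 97. The arrays of A/J, B6.C and C3H/HeJ ranged over -1.26 to 1.91 with a median of -0.548, -0.304 to 1.42 with a median of 0.170 and -1.04 to 0.156 with a median of -0.469. E2f5 showed the same split: in Balb/C its Cy5 arrays read 0.980, 0.869, 2.41 and 3.3, and its turned Cy3 arrays 0.137, -0.516, -0.538 and -1.74. In DBA/2J the Cy5 arrays of E2f5 read 3.19 and 1.64, and the turned Cy3 arrays -0.673 and -1.28. In those strains the 2 orientations of both genes thus lay mostly on opposite sides after turning. With arrays 34, 35 and 36 left out, Cdc25a averaged 0.210 and E2f5 0.296.

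Of the D-type cyclins, which sense growth signals, Ccnd2 and Ccnd3 were measured, and Ccnd1 was not among the genes the rule found. Both lay on the negative side in the mean, Ccnd2 only through C3H/HeJ. Ccnd3 averaged -0.309 ± 0.327 (SD, n = 6 strains), with -0.0120 in A/J, -0.545 in B6.C, -0.784 in Balb/C, -0.138 in C3H/HeJ, 0.0422 in C57Bl6/J and -0.419 in DBA/2J (limma adjusted p = 0.567). In Balb/C its 4 Cy5 arrays read -1.22, -1.89, -0.469 and -0.614, and its turned Cy3 arrays -0.384, -0.0275, -1.73 and 0.0628, so 7 of 8 arrays were negative, in both orientations. Ccnd2 averaged -0.189 ± 0.754 (SD, n = 6 strains), with 0.0661 in A/J, 0.0237 in B6.C, 0.549 in Balb/C, -1.59 in C3H/HeJ, -0.396 in C57Bl6/J and 0.219 in DBA/2J, so C3H/HeJ lay far below the others. The C3H/HeJ score of Ccnd2 rested on 3 arrays, at -4.46 (array 27) and -1.52 in Cy5 and -0.200 turned in Cy3. Without C3H/HeJ, the mean of Ccnd2 was 0.0923. Cdk4, the partner of these cyclins, averaged -0.114 ± 0.610 (SD, n = 6 strains), with A/J at 0.988 and the other strains between -0.645 and 0.0935. Cdk2, which acts with cyclins E and A, averaged -0.227 ± 0.252 (SD, n = 6 strains) and was negative in 4 strains, with 0.0533 in A/J, -0.439 in B6.C, -0.445 in Balb/C, -0.339 in C3H/HeJ, -0.320 in C57Bl6/J and 0.127 in DBA/2J. Ccne1, cyclin E1, had the smallest SD over strains of the 44 genes, at 0.0119 ± 0.114 (SD, n = 6 strains), with -0.0636 in A/J, 0.0664 in B6.C, -0.0636 in Balb/C, 0.187 in C3H/HeJ, -0.120 in C57Bl6/J and 0.0659 in DBA/2J. These small scores were balances of opposite orientations in 5 strains, such as Balb/C, where the Cy5 arrays averaged -0.527 and the turned Cy3 arrays 0.400, and only C3H/HeJ had the same sign in both (0.250 and 0.123). E2f1, an activating E2F factor, averaged 0.134 ± 0.610 (SD, n = 6 strains), with 0.0996 in A/J, -0.281 in B6.C, 0.746 in Balb/C, -0.790 in C3H/HeJ, 0.804 in C57Bl6/J and 0.227 in DBA/2J. The Balb/C score of E2f1 rested on arrays 35 and 36, as its Cy5 arrays read 0.0202, 0.237, 1.80 and 4.88 and its turned Cy3 arrays -0.967, 0.296, -0.175 and -0.121. In C57Bl6/J the Cy5 arrays of E2f1 read -0.240 and 0.313, and the turned Cy3 arrays 0.322 and 2.82, the high one being array 97. The mean of E2f1 was 0.00813 without arrays 50, 53 and 97, -0.114 with them turned and 0.00975 without arrays 34, 35 and 36.

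Among the CDK inhibitors, Cdkn1a did not stand out. Cdkn1a averaged -0.0868 ± 0.297 (SD, n = 6 strains) over strains (limma adjusted p = 0.810), with -0.0265 in A/J, -0.116 in B6.C, -0.0511 in Balb/C, -0.574 in C3H/HeJ, -0.111 in C57Bl6/J and 0.358 in DBA/2J. Over its 35 arrays it ranged over -3.18 to 1.36 with a median of -0.0559. In DBA/2J all 4 arrays were positive, at 0.617 and 0.377 with irradiated RNA in Cy5 and 0.283 and 0.156 turned with it in Cy3. In C3H/HeJ the Cy5 arrays read -3.18, -1.62 and -1.17, and the turned Cy3 arrays 0.325 and 1.36, so the orientations lay on opposite sides. In A/J, B6.C, Balb/C and C57Bl6/J the arrays ranged over -0.405 to 0.458 with a median of -0.137, -0.709 to 0.757 with a median of -0.0717, -0.735 to 0.671 with a median of -0.0308 and -0.448 to 0.382 with a median of -0.190, on both sides of 0 in each.

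The INK4 inhibitors, which block Cdk4 and Cdk6, included the gene with the widest spread of the 44 between strains. This was Cdkn2b (p15), which averaged 0.466 ± 0.912 (SD, n = 6 strains), with 0.444 in A/J, 0.427 in B6.C, -0.126 in Balb/C, 2.24 in C3H/HeJ, -0.174 in C57Bl6/J and -0.0199 in DBA/2J. Its score in C3H/HeJ rested on 1 Cy5 array at -0.0434 and 1 turned Cy3 array at 4.53. In B6.C, 6 of 7 arrays of Cdkn2b were positive, at 0.387, 0.420, 0.383 and 1.16 in Cy5 and -0.110, 0.747 and 0.160 turned in Cy3. Cdkn2c (p18) averaged -0.254 ± 0.296 (SD, n = 6 strains) (limma adjusted p = 0.567), with 0.0809 in A/J, -0.732 in B6.C, -0.340 in Balb/C, 0.0353 in C3H/HeJ, -0.337 in C57Bl6/J and -0.230 in DBA/2J. In B6.C, its lowest strain, the Cy5 arrays read -0.582, -0.743, -1.82 and -2.26 and the turned Cy3 arrays 0.152, -1.16, 0.748 and -0.196. With the signs of arrays 50, 53 and 97 turned, the mean of Cdkn2c was 0.0474. Cdkn2d (p19) averaged -0.271 ± 0.513 (SD, n = 6 strains), with -0.214 in A/J, 0.226 in B6.C, 0.0607 in Balb/C, -1.24 in C3H/HeJ, -0.304 in C57Bl6/J and -0.155 in DBA/2J. Its C3H/HeJ score rested on array 27, which read -9.56, while the other 5 arrays of the strain were positive. The median of the 4 tested inhibitors was -0.170.

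The replication genes centred on 0. Of 14 tested, 6 means were positive and 8 negative, with a median of -0.00909, and only Mcm4 was called at an unadjusted p under 0.05. The MCM helicase is a ring of 6 proteins, of which 5 were measured. Mcm4 averaged 0.416 ± 0.313 (SD, n = 6 strains), with 0.117 in A/J, 0.354 in B6.C, 0.858 in Balb/C, 0.0589 in C3H/HeJ, 0.420 in C57Bl6/J and 0.690 in DBA/2J (limma adjusted p = 0.567). All 6 strain scores of Mcm4 were positive, but single arrays were not: over 32 arrays it ranged over -0.963 to 3.28 with a median of 0.438, with 20 positive and 12 negative. In Balb/C, its highest strain, the Cy5 arrays read 0.774, 0.967 and 3.28, and the turned Cy3 arrays -0.0103, 0.902, 0.240 and -0.963. In DBA/2J they read 0.942 and 0.497 in Cy5 and 1.88 and -0.558 turned in Cy3. Its mean was 0.350 with arrays 50, 53 and 97 left out, 0.319 with their signs turned, and 0.331 with arrays 34, 35 and 36 left out.

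The other MCM subunits did not share the pattern of Mcm4. Mcm2 averaged -0.0439 ± 0.349 (SD, n = 6 strains), Mcm5 0.0256 ± 0.142 (SD, n = 6 strains), Mcm6 -0.0500 ± 0.161 (SD, n = 6 strains) and Mcm7 0.0181 ± 0.672 (SD, n = 6 strains). Mcm5 scored -0.0195 in A/J, 0.163 in B6.C, -0.00522 in Balb/C, 0.206 in C3H/HeJ, -0.189 in C57Bl6/J and -0.00180 in DBA/2J. Mcm6 scored -0.0645 in A/J, 0.0118 in B6.C, 0.0338 in Balb/C, -0.312 in C3H/HeJ, -0.129 in C57Bl6/J and 0.160 in DBA/2J. The strain scores of both thus stayed within a narrow band, but they were balances of opposite orientations in every strain. In A/J Mcm5 averaged -0.499 in Cy5 and 0.460 turned in Cy3, and in C3H/HeJ Mcm6 averaged 0.286 and -0.909. Mcm2 scored -0.0523 in A/J, 0.0975 in B6.C, -0.145 in Balb/C, 0.475 in C3H/HeJ, -0.602 in C57Bl6/J and -0.0368 in DBA/2J, with C3H/HeJ and C57Bl6/J at its ends. In C3H/HeJ 5 of the 6 arrays of Mcm2 were positive, at 0.808, 0.50 and 0.793 in Cy5 and -0.201, 0.318 and 0.630 turned in Cy3. In C57Bl6/J the Cy5 arrays of Mcm2 read -0.458 and -0.827, and the turned Cy3 arrays 0.155 and -1.28, the lower of which is array 97. Mcm7 spread widely, with -0.624 in A/J, -0.0762 in B6.C, 0.383 in Balb/C, -0.635 in C3H/HeJ, -0.0818 in C57Bl6/J and 1.14 in DBA/2J, and in DBA/2J the Cy5 arrays read 6.22 and 0.923 and the turned Cy3 arrays -0.472 and -2.10. Scores of the subunits of this ring thus varied within single strains, as in DBA/2J, where Mcm2 (-0.0368) and Mcm5 (-0.00180) lay near 0 and Mcm4 scored 0.690. Differences between subunits were not tested.

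All 6 ORC subunits were measured and none was called over strains. Orc6 averaged -0.295 ± 0.403 (SD, n = 6 strains), Orc1 -0.137 ± 0.255 (SD, n = 6 strains), Orc5 0.0721 ± 0.316 (SD, n = 6 strains), Orc2 0.0211 ± 0.388 (SD, n = 6 strains), Orc4 -0.0108 ± 0.333 (SD, n = 6 strains) and Orc3 -0.00740 ± 0.339 (SD, n = 6 strains). Orc6, the subunit least tightly bound to the rest, was negative in 5 strains, with -0.0363 in A/J, 0.232 in B6.C, -0.274 in Balb/C, -0.817 in C3H/HeJ, -0.716 in C57Bl6/J and -0.160 in DBA/2J. Its C3H/HeJ score held 1 array at -5.61, array 27, and the other 4 arrays there were positive. Array 27 also held the lowest values of Cdkn2d (-9.56), Cdc37l1 (-9.10), Ccng1 (-5.67) and Ccnd2 (-4.46). Those of Cdk5 (-8.71) and Cdk5r2 (-4.99) were on C3H/HeJ array 25. Orc1, the largest subunit, scored 0.131 in A/J, -0.428 in B6.C, -0.106 in Balb/C, -0.403 in C3H/HeJ, 0.171 in C57Bl6/J and -0.187 in DBA/2J, on both sides of 0. In C3H/HeJ, 4 of the 6 subunits were negative, and the median over ORC subunits was -0.328 there, between -0.184 and 0.102 in the other strains. For the 5 MCM subunits the strain medians lay between -0.129 in C57Bl6/J and 0.160 in DBA/2J.

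**Figure D2:**
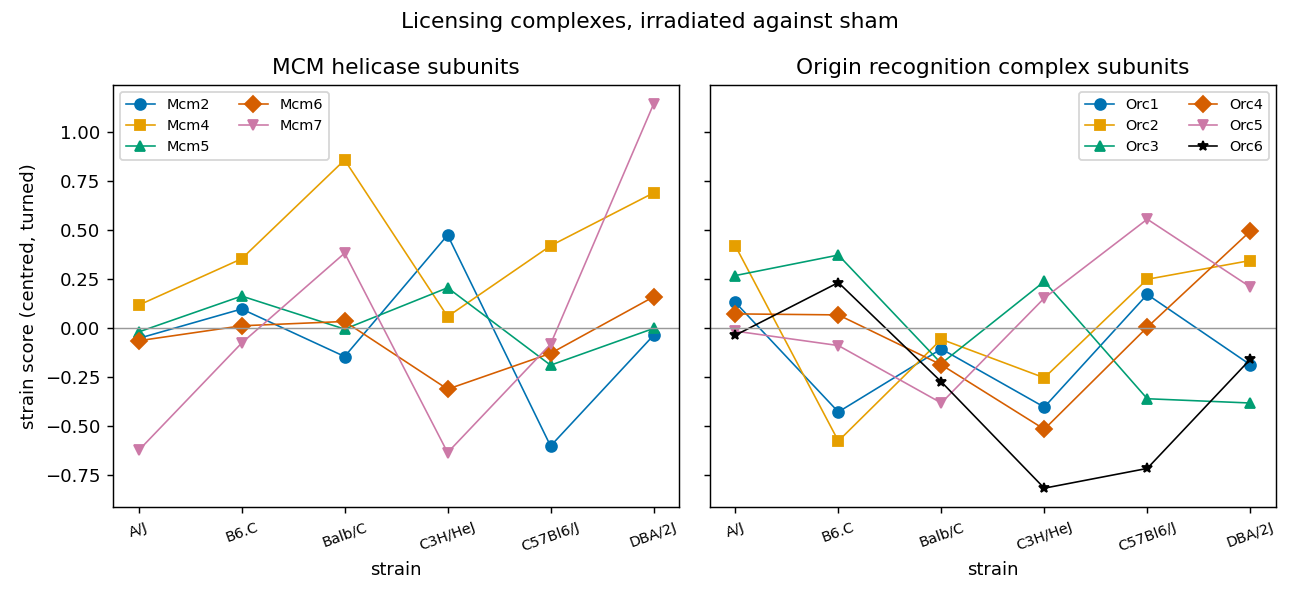
Strain scores (y axis, centred and turned, irradiated against sham-exposed spleen; unit not given) of the 5 measured MCM subunits (left) and the 6 ORC subunits (right) in the 6 strains; lines join the strains of 1 gene for reading only. Mcm4 alone stays above 0 in all strains, and the subunits of each complex spread to both sides of 0 in every strain, except that no ORC subunit of Balb/C lies above 0.

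Cdc6, which loads the MCM ring at ORC, averaged -0.271 ± 0.258 (SD, n = 6 strains) (limma adjusted p = 0.567) and was negative in all strains, with -0.0805 in A/J, -0.360 in B6.C, -0.0496 in Balb/C, -0.0232 in C3H/HeJ, -0.464 in C57Bl6/J and -0.647 in DBA/2J. Its arrays ranged over -2.31 to 1.49 with a median of -0.346, and 26 of 37 were negative. In DBA/2J its 4 arrays were negative, at -1.61 and -0.433 in Cy5 and -0.482 and -0.0595 turned in Cy3. In A/J the Cy5 arrays read -1.09, -0.367, -0.657 and -0.685, and the turned Cy3 arrays -0.0917, 1.14, 0.968 and 0.136, so the strain score near 0 (-0.0805) was a balance of opposite orientations. The orientation means of Cdc6 also had opposite signs in Balb/C (-0.663 in Cy5 and 0.564 turned in Cy3), C3H/HeJ (0.733 and -0.780) and B6.C (-0.764 and 0.0439). Both were negative only in C57Bl6/J and DBA/2J. The Cdc6 mean was -0.0535 with arrays 50, 53 and 97 turned. Cdc7, the kinase that fires licensed origins, averaged -0.0455 ± 0.457 (SD, n = 6 strains) and had a wide gap between orientations. In C57Bl6/J its Cy5 arrays read 4.28 and 4.55, and its single turned Cy3 array -4.64, with a strain score of -0.110. Ccna2, the S phase cyclin, averaged 0.143 ± 0.484 (SD, n = 6 strains), with -0.367 in A/J, -0.172 in B6.C, 0.331 in Balb/C, -0.247 in C3H/HeJ, 0.441 in C57Bl6/J and 0.875 in DBA/2J. In C3H/HeJ its Cy5 arrays read 1.93, 1.51 and 1.30 and its turned Cy3 arrays -1.63, -2.06 and -2.54. For both genes the Cy5 side was positive and the turned Cy3 side negative in these strains.

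Of the G2 and mitosis genes only 3 could be tested, with means of 0.429, 0.172 and -0.0699, and none was called. Cdc25c, the phosphatase that frees Cdk1 at the entry to mitosis, averaged 0.429 ± 0.617 (SD, n = 6 strains), with 0.124 in A/J, -0.0255 in B6.C, 0.597 in Balb/C, -0.306 in C3H/HeJ, 1.37 in C57Bl6/J and 0.813 in DBA/2J (limma adjusted p = 0.567). In C57Bl6/J its Cy5 arrays read 2.29 and 0.766, and its turned Cy3 arrays -1.43 and 3.86, where the high one is array 97. In DBA/2J the Cy5 arrays of Cdc25c read 4.19 and 1.44, and the turned Cy3 arrays -0.961 and -1.41. In Balb/C they read 0.911, 0.327, 3.68 and 3.05 in Cy5 and 0.0771, -0.709, -0.501 and -2.06 turned in Cy3. In Balb/C and DBA/2J the positive scores of Cdc25c, Cdc25a and E2f5 thus rested on the Cy5 arrays, while in C57Bl6/J both orientations were positive in the mean for Cdc25c (1.53 in Cy5 and 1.21 turned in Cy3) and for E2f5 (1.72 and 0.936, the Cy3 value of E2f5 being array 97 alone). The mean of Cdc25c was 0.200 without arrays 34, 35 and 36 and 0.247 without arrays 50, 53 and 97. Cdc25b, which acts at the centrosome before mitosis, averaged 0.172 ± 0.643 (SD, n = 6 strains), with -0.355 in A/J, -0.0424 in B6.C, -0.0506 in Balb/C, 1.17 in C3H/HeJ, 0.750 in C57Bl6/J and -0.437 in DBA/2J. Its C3H/HeJ score joined -1.17 and -1.64 in Cy5 with 1.31 and 6.18 turned in Cy3. Cdk1 averaged -0.0699 ± 0.266 (SD, n = 6 strains), with 0.115 in A/J, -0.509 in B6.C, -0.292 in Balb/C, 0.122 in C3H/HeJ, 0.0997 in C57Bl6/J and 0.0447 in DBA/2J. In B6.C, its lowest strain, the Cy5 arrays of Cdk1 read 0.171, 0.486, -0.123 and -1.78, and the turned Cy3 arrays -0.125, -1.48, 0.0108 and -1.23, and the 2 lowest of these are arrays 53 and 50.

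**Figure D3:**
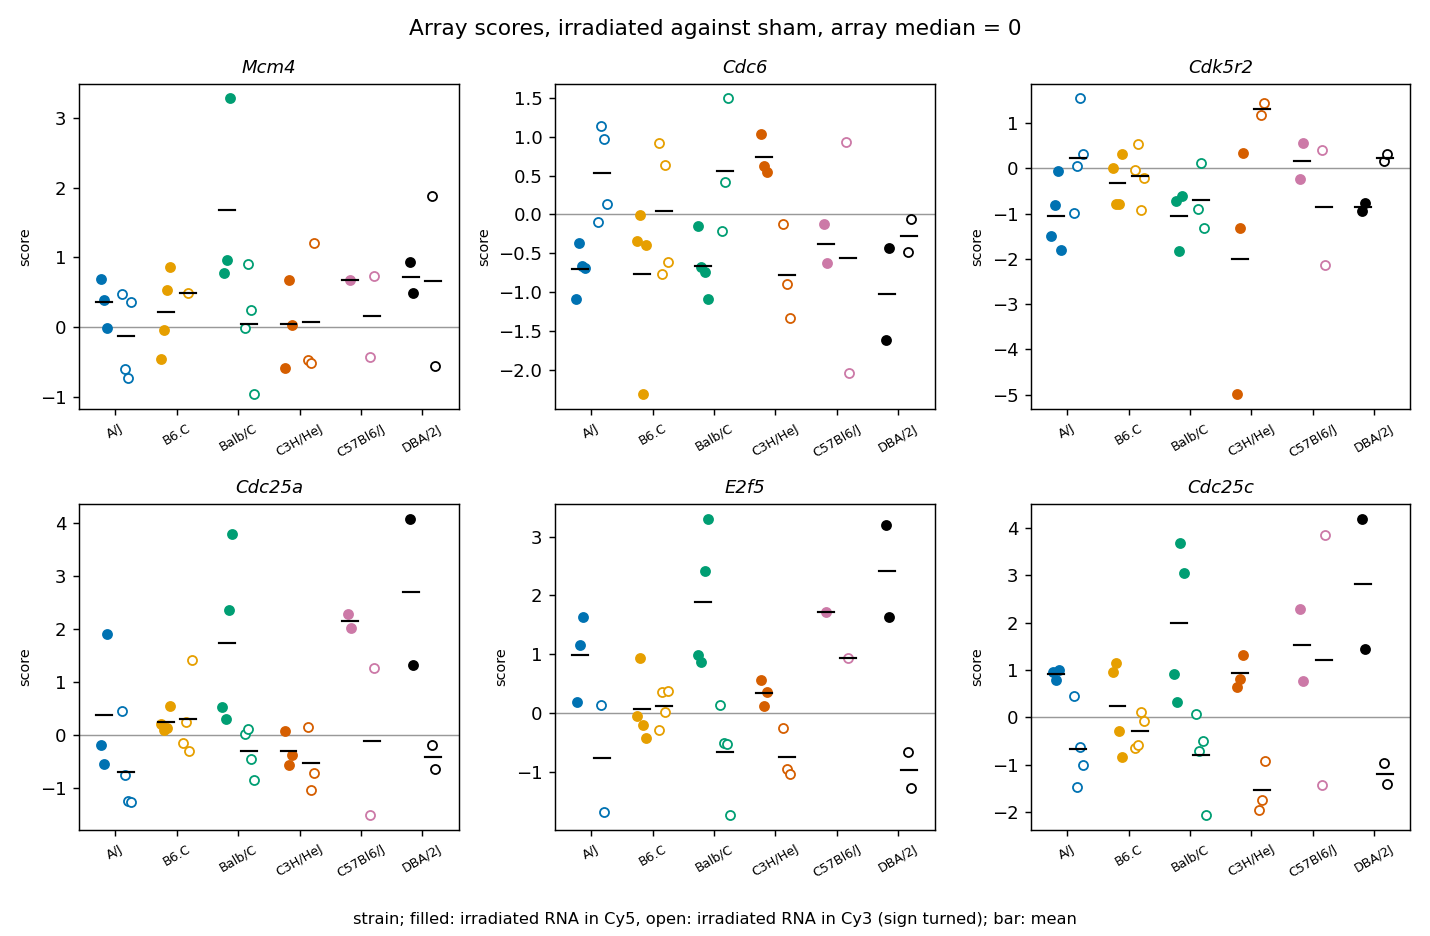
Score on every array (y axis, array median at 0, turned where irradiated RNA was in Cy3; unit not given) of Mcm4, Cdc6, Cdk5r2, Cdc25a, E2f5 and Cdc25c by strain (x axis); filled points have irradiated RNA in Cy5, open points in Cy3, and bars are means of each orientation. In Balb/C and DBA/2J, Cdc25a, E2f5 and Cdc25c have filled points up to 4.19 and most open points below 0.

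The cyclins of transcription stayed near 0. Ccnl1, a splicing-linked cyclin, averaged 0.102 ± 0.189 (SD, n = 6 strains) and was positive in 5 strains, with 0.0665 in A/J, 0.150 in B6.C, 0.158 in Balb/C, 0.218 in C3H/HeJ, -0.256 in C57Bl6/J and 0.277 in DBA/2J. Ccnt1, the partner of Cdk9 in transcription elongation, averaged -0.0573 ± 0.204 (SD, n = 6 strains), with -0.0145 in A/J, 0.0401 in B6.C, 0.0975 in Balb/C, -0.225 in C3H/HeJ, 0.141 in C57Bl6/J and -0.382 in DBA/2J. Among genes with other roles, Cdk5r2, the p39 activator of the neuronal kinase Cdk5, had the smallest p of the 44 genes over strains. It averaged -0.425 ± 0.231 (SD, n = 6 strains), with -0.410 in A/J, -0.240 in B6.C, -0.881 in Balb/C, -0.346 in C3H/HeJ, -0.357 in C57Bl6/J and -0.314 in DBA/2J (limma adjusted p = 0.567). Its 35 arrays ranged over -4.99 to 1.54 with a median of -0.247, with 22 negative and 13 positive. In Balb/C 5 of 6 arrays were negative, at -0.727, -1.83 and -0.617 in Cy5 and -0.902, 0.106 and -1.32 turned in Cy3. In C3H/HeJ the orientations opposed each other, at -4.99, -1.33 and 0.334 in Cy5 and 1.18 and 1.43 turned in Cy3. Their means were also opposed in A/J (-1.05 in Cy5 and 0.227 turned in Cy3), C57Bl6/J (0.154 and -0.867) and DBA/2J (-0.857 and 0.228). Only in B6.C and Balb/C were both orientations of Cdk5r2 negative in the mean. The mean of Cdk5r2 was -0.282 with arrays 50, 53 and 97 turned (limma adjusted p = 0.973), and -0.356 without them. Cdk5 itself averaged -0.242 ± 0.213 (SD, n = 6 strains), negative in 5 strains, but in C3H/HeJ its Cy5 arrays read -8.71 and -1.95 and its turned Cy3 array 4.15.

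Cdc37l1, a relative of the kinase chaperone Cdc37, averaged -0.499 ± 0.491 (SD, n = 6 strains) (limma adjusted p = 0.567), with 0.0861 in A/J, -0.683 in B6.C, -0.313 in Balb/C, -1.30 in C3H/HeJ, -0.643 in C57Bl6/J and -0.139 in DBA/2J. Its C3H/HeJ score held 1 Cy5 array at -9.10, array 27, and the turned Cy3 arrays there read 0.883 and 2.00. Cdc42ep4, which binds the GTPase Cdc42, averaged 0.471 ± 0.522 (SD, n = 6 strains) (limma adjusted p = 0.567), with -0.0929 in A/J, 0.320 in B6.C, 0.876 in Balb/C, -0.0143 in C3H/HeJ, 1.26 in C57Bl6/J and 0.476 in DBA/2J. In Balb/C its Cy5 arrays read -1.00e-04, 0.599, 1.17 and 6.70, the highest being array 36, and without arrays 34, 35 and 36 its mean was 0.275. The remaining genes, none called, were Ccna1, a germ cell cyclin (0.274), Cdc42ep5 (0.159) and Cdc42ep3 (0.0470), the kinases Cdk16 (0.121), Cdk14 (0.0833) and Cdk18 (-0.164), Ccng2 (-0.0362), Mcm3ap (-0.130) and Cdk2ap2 (-0.182), given as means over strains. Ccng1, a p53 target, could not be tested with values on 15 arrays: in C3H/HeJ it read -5.67 and -2.29 in Cy5 and -2.35 turned in Cy3, and over all its arrays -5.67 to 1.33 with a median of -0.719.

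Agreement between the orientations varied between strains. Turned scores of the Cy5 and Cy3 arrays had the same sign for 9 of 44 genes in A/J (20.5%), 24 in B6.C (54.5%), 12 in Balb/C (27.3%), 11 in C3H/HeJ (25.0%), 18 in C57Bl6/J (40.9%) and 12 in DBA/2J (27.3%). Over all probes tested these shares were 30.9%, 53.6%, 30.3%, 22.5%, 47.2% and 35.0% in the same order of strains. B6.C had the highest share in both. Before turning, the mean over Cy5 arrays and the mean over Cy3 arrays had the same sign for 34 of the 44 genes. Across the 44 genes these means had a Pearson r of 0.719, and across all 14513 probes tested of 0.681, given as a description since genes on the same arrays are not independent. Scores that turned with the dye would have opposite signs in these means. The part of the dye in single scores was not tested.

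**Figure D4:**
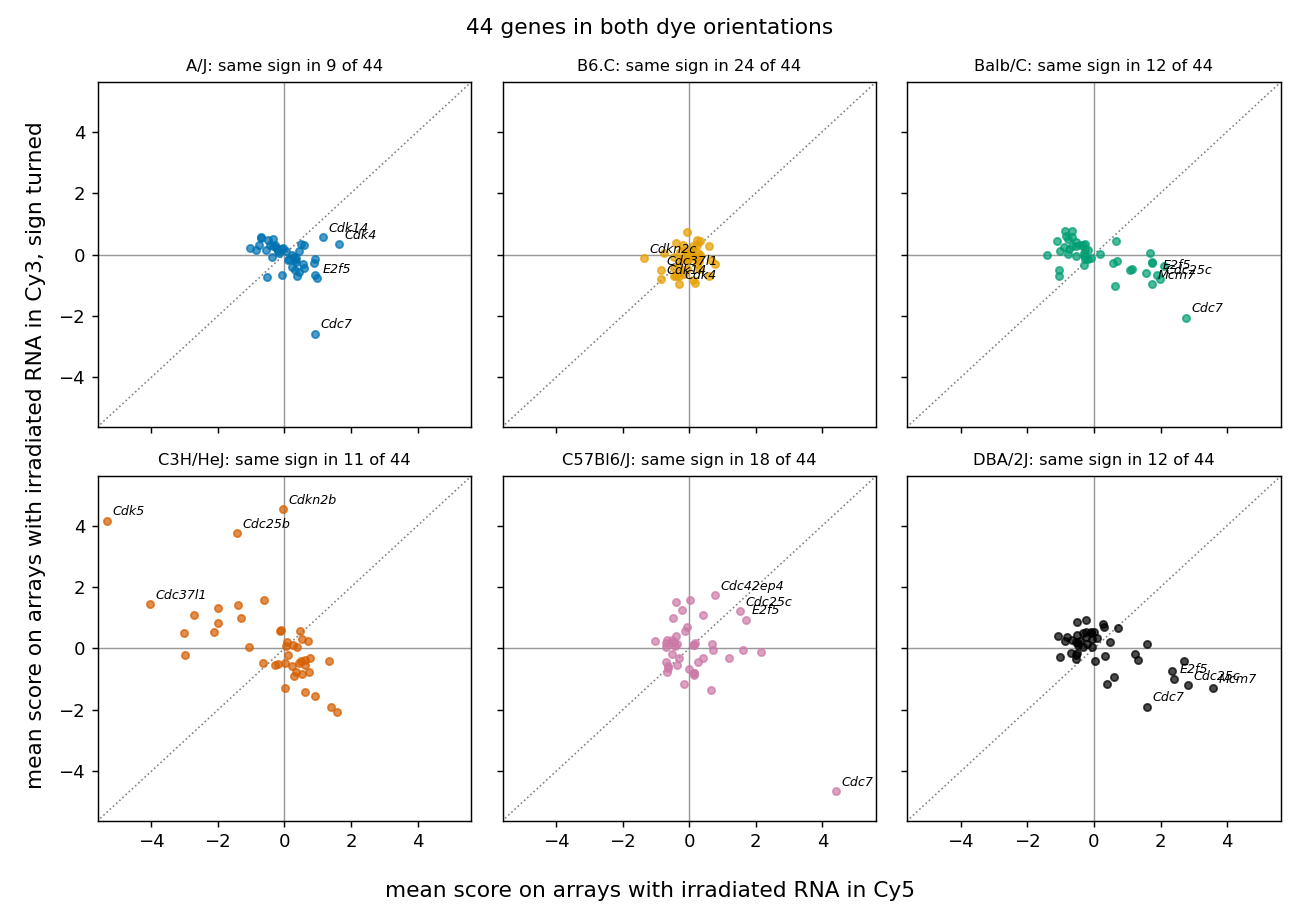
For each strain, the mean score of the 44 genes on arrays with irradiated RNA in Cy5 (x axis) against that on arrays with it in Cy3 after turning (y axis), in score units; the dotted line marks equal values. Points on the same side in both orientations lie in the upper right and lower left corners. These hold 9 of 44 genes in A/J and 24 of 44 in B6.C, which includes arrays 50 and 53 of unsettled direction. Cdc7 in C57Bl6/J lies furthest into the lower right.

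Within strains, limma was fitted over all 38 arrays with a response and a dye term per strain. Arrays that repeat the same mice counted as separate, so these p-values are too small. At an unadjusted p under 0.05 it called 0 of 44 genes in A/J (0.889% of all probes), 4 in B6.C (7.48%), 5 in Balb/C (11.9%), 6 in C3H/HeJ (13.9%), 4 in C57Bl6/J (10.1%) and 2 in DBA/2J (9.02%). These 21 calls were spread over 16 genes. B6.C had 0 calls without arrays 50, 53 and 97, and Balb/C had 1 without arrays 34, 35 and 36. In B6.C Cdkn2c (-0.732 ± 0.244 SE), Orc2 (-0.576) and Cdk1 (-0.509) were negative and Cdkn2b (0.427) was positive. In Balb/C Mcm4 (0.858 ± 0.320 SE), Cdc25a (0.728) and E2f5 (0.613) were positive, and Ccnd3 (-0.784) and Cdk5r2 (-0.881) negative. In C57Bl6/J Cdc25c (1.37 ± 0.566 SE), E2f5 (1.33) and Cdc25a (1.02) were positive and Mcm2 (-0.602) negative, and in DBA/2J Cdc25a (1.15 ± 0.481 SE) and Mcm7 (1.14) were positive. In C3H/HeJ Cdkn2b (2.24 ± 0.344 SE), Cdc25b (1.17) and Mcm2 (0.475) were positive, and Ccnd2 (-1.59), Cdc37l1 (-1.30) and Cdkn1a (-0.574) negative.

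Only Cdkn2b in C3H/HeJ passed adjustment over all probes (limma adjusted p = 4.32e-04), where 2.49% of all probes did so. It had 2 arrays in this strain, at -0.0434 and 4.53, so its error came from the spread of this gene in the other strains and not from C3H/HeJ. The call did not hold after each array was also scaled to the same spread (adjusted p = 0.177) or with 1 dye term for all strains (adjusted p = 0.0588), and the gene could no longer be tested with either of these arrays, A/J array 46 or C57Bl6/J array 95 left out. Of the 21 unadjusted calls, 12 had the same sign in both orientations and 9 opposite signs. Among the first were Orc2, Mcm2 and Ccnd3, at -0.465 in Cy5 and -0.687 turned in Cy3 for Orc2 in B6.C, 0.701 and 0.249 for Mcm2 in C3H/HeJ, and -1.05 and -0.520 for Ccnd3 in Balb/C. Among the others were Cdc25a and Mcm7 in DBA/2J and Cdkn1a, Cdkn2b, Cdc25b and Cdc37l1 in C3H/HeJ.

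To ask whether strains differed, limma's F test was run over the 19 Cy5 arrays, where 32 of the genes had at least 2 values in every strain. It called 0 genes at an adjusted p under 0.05, against 3.58% of 10465 probes, and 9 genes (28.1%) at an unadjusted p under 0.05, against 26.1% of all probes. The 5 with the smallest p were Ccnd2, Cdkn2c, Mcm2, Cdkn1a and Orc2 (adjusted p between 0.0892 and 0.137), and C3H/HeJ lay at one end for each. Ccnd2 read -4.46 (array 27) and -1.52 on the C3H/HeJ arrays, against Cy5 means between -1.02 and 0.661 in the other strains. Mcm2 read 0.808, 0.50 and 0.793 there, against means between -0.781 and 0.0959. Cdkn1a read -3.18, -1.62 and -1.17, against means between -0.359 and 0.497. Cdkn2c had a Cy5 mean of 0.607 in C3H/HeJ, -0.00186 in C57Bl6/J and between -1.35 and -0.341 in the other 4 strains. In 1 orientation, a dye effect particular to a strain and its response to irradiation cannot be told apart. In C3H/HeJ, Cdkn1a (-1.99 in Cy5 and -0.843 in Cy3 before turning) and Cdkn2c (0.607 and 0.537) kept their side. Mcm2 (0.701 and -0.249) changed side, as did Ccnd2 with its 1 Cy3 array at 0.200. Differences between strains in response were not tested.

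Before turning, Orc2 lay on opposite sides in C3H/HeJ and Balb/C in both orientations. On Cy5 arrays of C3H/HeJ it read 1.82, 1.31 and 1.07, and on Cy3 arrays before turning 1.40, 1.81 and 2.51, all 6 on the positive side. In Balb/C it read -1.03, -1.0, -0.801 and -0.646 on Cy5 arrays and -0.732, -0.668, -0.468 and -1.16 on Cy3 arrays before turning, all 8 on the negative side. Over the 19 Cy3 arrays the F test called Orc2 (limma adjusted p = 0.0128), the only 1 of 27 genes tested there (3.70%, against 2.37% of 9457 probes), and 2 genes at an unadjusted p under 0.05, Orc2 and Mcm6 (7.41%, against 17.3% of all probes). A/J and B6.C changed side between the orientations before turning, as A/J averaged 0.486 in Cy5 and -0.352 in Cy3, and B6.C -0.465 in Cy5 and 0.687 in Cy3. After turning, Orc2 scored 0.419 in A/J, -0.576 in B6.C, -0.0571 in Balb/C, -0.253 in C3H/HeJ, 0.249 in C57Bl6/J and 0.345 in DBA/2J. Differences between these turned strain scores were not tested.

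**Figure D5:**
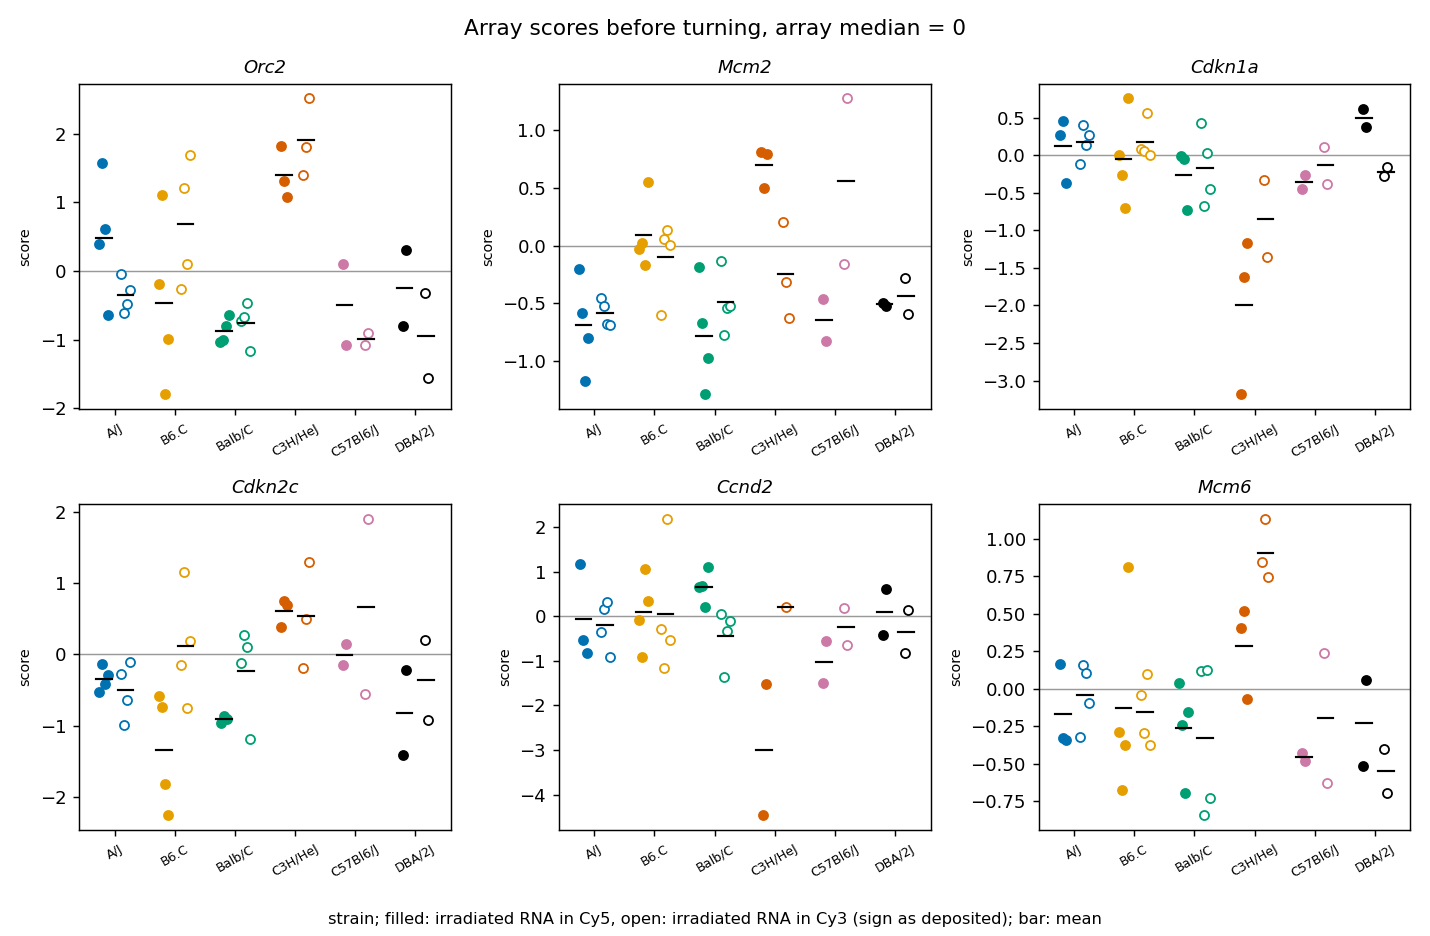
Score on every array before turning (y axis, array median at 0; unit not given) of Orc2, Mcm2, Cdkn1a, Cdkn2c, Ccnd2 and Mcm6 by strain (x axis); filled points have irradiated RNA in Cy5, open points in Cy3, and bars are means of each orientation. Scores that turned with the dye would have filled and open points on opposite sides of 0, whereas Orc2 lies above 0 on all C3H/HeJ arrays and below 0 on all Balb/C arrays.

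Other genes of the same pathways gave no call after adjustment either. Of 33 listed replication genes 15 were tested, with a median of -0.0538, and 1, Rpa3 of the single-strand binding complex, was called at an unadjusted p under 0.05 (-0.375 ± 0.349, SD over strains). Next were the clamp loader subunit Rfc2 (-0.294) and the polymerase subunit Pold1 (0.668). Of 35 listed mitosis genes 13 were tested and 0 called, with a median of -0.0401 and with the Cdk1 partner Cks2 (-0.398), the spindle checkpoint gene Bub3 (0.364) and securin, Pttg1 (-0.141), as those of the smallest p. Of 23 listed checkpoint and p53 pathway genes 11 were tested and 0 called, with a median of -0.0975 and with Sfn at 0.204, Gadd45b at 0.365 and Gadd45g at -0.217. These medians lay beside -0.00675 for all probes tested, and the counts of calls beside 8.21% of all probes.

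Markers of the cell types of spleen were not called over strains, with 0 of 8 B cell, 4 T cell, 6 macrophage and 8 erythroid genes tested at an unadjusted p under 0.05 by limma. Over all probes tested 8.21% were called, so 0 calls in lists this short do not show that these cell types were unchanged. Genes of the pancreas, which lies against the spleen, were called in 6 of 15. These 6, Clps, Gp2, Prss2, Cel, Prss1 and Ctrb1, belong to its exocrine part and were negative, while the islet genes Ins1 and Ins2, also on the list, averaged -0.223 and 0.295. The median of the 15 was -0.462, and the median of this list on single arrays ran between -3.72 and 2.09 in A/J and between -1.81 and 0.327 in Balb/C. The median of the cell cycle genes on single arrays ran only between -0.494 and 0.268. The part of pancreas RNA in the scores of the cell cycle genes was not tested.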

How the data were processed

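Spleen RNA of irradiated and sham-exposed mice was compared on 38 2-colour arrays. By the methods of the study, dim and poor-quality spots were dropped, local background was subtracted and values were normalized by Lowess. The authors deposited 1 signed score per spot and array (23232 spots), and neither its scale nor its log base, centring or dye direction is stated in the sources used here. Array medians ran between -3.16 and 3.95. Here, 96 Alien, 275 buffer and 864 blank spots were removed, spots of a probe were averaged, probes were named by RefSeq accession (GRCm38.p6, names only), arrays were centred on their medians, and scores with irradiated RNA in Cy3 were turned.

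limma 3.58.1 in R 4.3.3 (lmFit, eBayes) tested the mean of 6 strain scores, each strain's response over 38 arrays, and differences between strains (F test over the 19 Cy5 arrays, at least 2 values per strain), with Benjamini-Hochberg adjustment over all probes. The design foresaw log ratios, and the scores were used in their place. Scaling, filters, weights, dye terms, left-out arrays and strains, and turned signs of arrays 50, 53 and 97 were tried. Leaving out arrays 34, 35 and 36 was added after seeing the data. Their SDs of all scores were 1.66, 1.72 and 2.07, while arrays of wider spread, such as C3H/HeJ array 28 (2.35), were kept. The tests were checked on simulated data. The rule for the members uses names only, but the members, lists and tests were chosen with earlier results of these data known. Every tested gene is named with its mean, and full values are given for genes with the same sign in all strains, for the 4 smallest p of each of the G1, inhibitor, replication and mitosis roles (2 in the others), for the 5 smallest p between strains and for a fixed set of textbook genes. The number of arrays limits the precision, and p-values within and between strains measure a spread that is partly technical.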

Additional observations from a re-analysis of the deposited data

Results flagged for a closer look

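Among 50 groups of values (the 6 strain scores of each tested gene, and the medians of the cell cycle genes on the arrays of each strain), 4 held a value far from the others by Dixon's criterion, which chance alone gives in about 5% of groups. Cdkn2b stood apart in C3H/HeJ, where its strain score was 2.24 and the other 5 lay between -0.174 and 0.444. Cdkn2d stood apart in the same strain at -1.24, where array 27 read -9.56 and the other 5 arrays between 0.119 and 0.945. Cdk5r2 stood apart in Balb/C at -0.881, against -0.410 to -0.240 in the other strains. The median of the cell cycle genes on Balb/C array 35 was -0.494, against -0.173 to 0.0796 on the other 7 arrays of that strain.

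Orc2 differed between strains on the arrays with irradiated RNA in Cy3 (limma F test, adjusted p = 0.0128), with C3H/HeJ at 1.91 and the other strains between -0.988 and 0.687 before turning. On the Cy5 arrays the adjusted p of this test was 0.137, with C3H/HeJ at 1.40. The C3H/HeJ scores before turning thus lay on the same side whichever dye held the irradiated RNA. After turning, Orc2 scored -0.253 in C3H/HeJ, and strains ranged over -0.576 to 0.419. Whether the response of Orc2 to irradiation differed between strains was not tested.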

How the results depend on the processing

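Over strains, 0 genes passed adjustment by limma under each alternative run and each array or strain left out, and the count at an unadjusted p under 0.05 (4) was 2 as deposited, 1 with values on all 38 arrays (of 7 genes tested) and 0 with arrays 50, 53 and 97 turned. It ranged over 2 to 7 with 1 strain left out (2 without Balb/C, 7 without A/J or C3H/HeJ) and 2 to 7 with 1 array left out (2 without C57Bl6/J array 96 or 97, 7 without DBA/2J array 70). For 27 of the 44 genes under 16 settings (without single arrays left out), 408 means were computed, and 406 moved by less than the SD over strains or, for the 4 called genes, kept their sign and stayed short of adjustment. The exceptions were Cdk2 as deposited (0.128) and Cdkn2c with arrays 50, 53 and 97 turned (0.0474). The SD could far exceed the mean, as for Mcm7 (0.672 against 0.0181), so the 406 include means that changed side. With arrays 50, 53 and 97 turned these were Ccne1 (-0.0719), E2f1 (-0.114), Cdk1 (0.0658), Mcm2 (0.0418) and Mcm7 (-0.0909). The count of 406 thus does not show that the means were stable.

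Within strains, the 21 unadjusted calls were 9 as deposited and 12 with 1 dye term. They were 13 to 25 with 1 array left out (13 without C57Bl6/J array 96). Without arrays 50, 53 and 97, with 41 genes tested, B6.C had 0 calls rather than 4 and C57Bl6/J 1 rather than 4. With these arrays turned, B6.C had 1 and C57Bl6/J 2. Without arrays 34, 35 and 36, Balb/C had 1 call rather than 5 and DBA/2J 0 rather than 2. C57Bl6/J then had 6 and A/J 1. The adjusted call became 0 as deposited, after scaling and with 1 dye term, where Cdkn2b in C3H/HeJ scored 2.37 (adjusted p = 0.944), 2.02 (adjusted p = 0.177) and 2.24 (adjusted p = 0.0588). With 1 array left out there were 0 to 5 such calls. There were 0 without A/J array 46 or C3H/HeJ array 28, 3 without C3H/HeJ array 29 and 5, all in C57Bl6/J, without C57Bl6/J array 95, and Cdkn2b could be tested in none of these 4 fits. In the other fits with 1 array left out it stayed at 2.24 and was called, and there were 2 calls without C3H/HeJ array 25 or 26 or DBA/2J array 83.

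Between strains, the adjusted calls (0) were 1 on Cy3 arrays (Orc2), 1 after scaling (Cdkn2c) and 31 of 32 genes as deposited. Of all probes, 2.37%, 11% and 97.4% passed in these settings. The unadjusted calls (9) were 2, 7 and 31 in the same settings, and 4 with values on each of the 19 arrays. They were 4 to 10 with 1 array left out (4 without C3H/HeJ array 27, 5 without Balb/C array 35 or B6.C array 47). The cause of these changes was not tested. No paired analysis was possible because no label names the arrays made from the same mice. The arrays per strain and the unsettled scale limit what these scores can show.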
